A study of Mus musculus with 2 samples.

Results

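The 42 genes described here encode proteins of the lysosome and its cathepsins. They were taken by symbol from a list of genes grouped by function, and each of the 42 matched 1 of the 55386 rows of the count tables. Transcripts were counted as UMIs (unique molecular identifiers, 1 per captured RNA molecule) in single CD45+ cells sorted from the aortic adventitia, the outer layer of the vessel wall, of RankCreRosa26eYFP mice aged 16 weeks. In both groups Cre under the control of Rank switches on eYFP in cells that express or have expressed Rank and in their progeny. One library came from 3 pooled animals at steady state, and the other from 2 pooled animals that had received angiotensin II (AngII) at 1.8 µg per kg and min for 10 days. With 1 library per condition there was no replicate of either condition, so no test was made. Condition, animals, library and depth cannot be told apart in any difference between the libraries.

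The lysosome is the acidic compartment in which cells break down proteins, lipids and sugar chains taken up from outside or delivered from within. Cathepsins are its proteases, a proton pump keeps it acidic, and glycosidases, lipid-handling proteins and membrane glycoproteins complete the set. Macrophages are professional phagocytes and rich in lysosomes, and in the arterial wall their cathepsins can also be secreted and cleave elastin and collagen. Many lysosomal genes carry the letters of the CLEAR element near their start, which the transcription factor TFEB and its relatives bind.

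Of the 42 members, 36 had a promoter window of 300 bases in the RefSeq table for GRCm38.p6, running from 250 bases before to 50 after the annotated start. The letters CACGTG, which read the same on both strands, were present in 11 of these 36 (30.6%), in 15 of 60 other lysosome genes (25%) and in 8.09% of all 27025 symbols in the table. The longer TCACGTG, searched on both strands and always overlapping CACGTG, was present in 9 of the 36 members (25%), in 15 of the 60 other lysosome genes and in 4.29% of all symbols. The members holding CACGTG were Atp6v1a, Ctsa, Ctsd, Ctsf, Ctsl, Gla, Glb1, Lamp1, Lgmn, Mcoln1 and Sgsh, and Ctsf and Ctsl lacked the longer form. The windows of 30 bases around it are shown for the 5 members that also passed 2-fold between the libraries in macrophage-like or resident-like cells, written 5′ to 3′ on the gene's strand with the 6 letters in capitals.
Ctsd at chr7:142388048-142388077, minus strand, with the letters beginning 245 bases before the start: tccccCACGTGacctgtatccagtcattct
Ctsd at chr7:142387908-142387937, minus strand, 98 bases before the start: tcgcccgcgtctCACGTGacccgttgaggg
Ctsl at chr13:64370739-64370768, minus strand, 236 bases before the start: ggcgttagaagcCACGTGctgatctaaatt
Lgmn at chr12:102439124-102439153, minus strand, 49 bases before the start: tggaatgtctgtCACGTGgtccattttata
Gla at chrX:134601215-134601244, minus strand, 227 bases before the start: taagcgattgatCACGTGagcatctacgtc
Gla at chrX:134601182-134601211, minus strand, 194 bases before the start: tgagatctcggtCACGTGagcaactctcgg
Ctsf at chr19:4855074-4855103, plus strand, 79 bases before the start: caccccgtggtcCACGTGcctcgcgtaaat
In the GENCODE M21 annotation the second Ctsd window and the Ctsl window overlap an exon of a longer transcript of the same gene, and the other 5 windows lie outside the gene's exons. Of these 5, the Lgmn window still lies within the annotated gene, whose GENCODE start on the minus strand is at 102439813, upstream of the window. Psap and Ctss, which were also higher in the AngII library, had a window without these letters.

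The steady-state library held 346 barcodes and 4009678 UMIs, of which 306 barcodes passed the filters with a median of 9105 UMIs. The AngII library held 4419 barcodes and 20481854 UMIs, of which 4198 passed with a median of 1092 UMIs. No barcode occurred in both libraries. Barcodes were assigned to classes by lists of marker genes that contain no member. Macrophage-like cells numbered 145 at steady state and 2688 on AngII, and were divided by further lists into resident-like (119 and 683), type-2-like (22 and 688), reparative-like (0 and 568) and other macrophages (4 and 749). T-cell-like and B-cell-like barcodes together are called lymphocyte-like (93 and 485). Levels are given as CPM, the UMIs of a gene scaled to 1000000 UMIs of the class, with exact 95% Poisson intervals. Each molecule is counted once at its 3′ end, so these values are not scaled by gene length. A ratio is compared only where both classes together hold at least 100 UMIs of the gene, and "past 2-fold" means a ratio of at least 2 or at most its inverse. Ratio intervals are exact and, like the others, cover counting error only.

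Members made up a far greater part of the RNA in myeloid cells than in lymphocytes. Their summed level in macrophage-like cells was 21477 CPM (21271 to 21685) at steady state and 26960 CPM on AngII, against 5496 and 6627 CPM in lymphocyte-like cells. The ratio was 3.91 (3.78 to 4.04) at steady state and 4.07 (4.0 to 4.14) on AngII. A scaling used the median ratio of the genes with at least 100 UMIs in each class (917 and 3024 genes). This median lay at -0.29 and -0.23 on the log2 scale, and the scaling moved these ratios to 4.79 and 4.76. As means of single cells they were 5.99 and 2.59, and after thinning to 1000 UMIs per cell 6.31 and 2.98. After every cell had been thinned to 1000 UMIs, the median member share per cell was 2.3% in 143 macrophage-like cells and 0.3% in 92 lymphocyte-like cells at steady state, and 2.6% in 1467 and 0.5% in 279 cells on AngII. The range between quartiles did not overlap between T-cell-like and resident-like cells in either library (the plot of the share per cell). Thinning left out 3 kept cells of the steady-state library and 1910 of the AngII library, which held fewer UMIs.

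**Figure D1:**
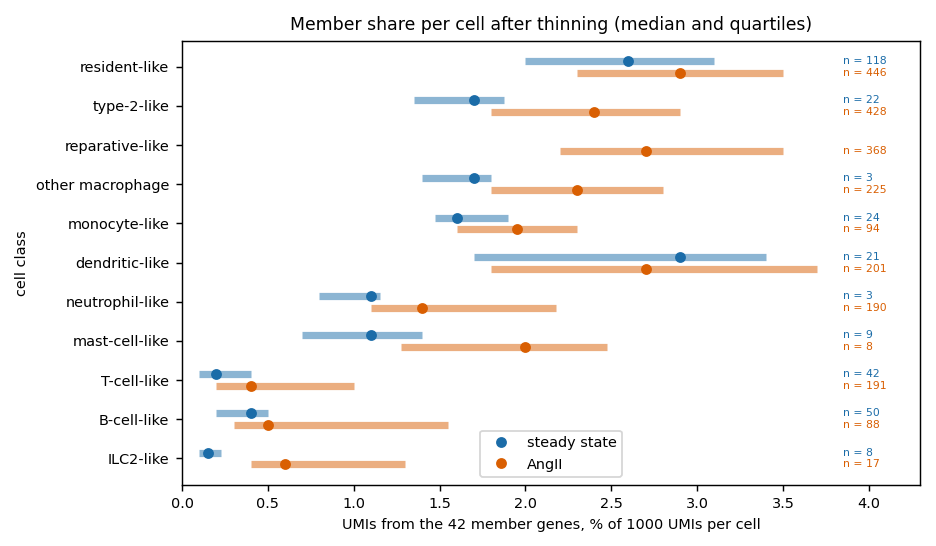
Share of UMIs from the 42 member genes in single cells thinned to 1000 UMIs, in percent (horizontal axis), by cell class (vertical axis) and library (blue, steady state; orange, AngII). Points are medians over cells, bars run from the first to the third quartile, and n is the number of cells. Dendritic-like cells (2.9% and 2.7%) and resident-like cells (2.6% and 2.9%) had the highest medians, reparative-like cells of the AngII library had 2.7%, and T-cell-like cells had 0.2% and 0.4%.

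At steady state 29 of the 34 members compared were past 2-fold higher in macrophage-like than in lymphocyte-like cells, against 23.2% of all 4124 genes compared, and 0 were past 2-fold lower, against 10.5%. On AngII 33 of 40 were higher, against 18.7% of 8902 genes, and 0 lower, against 12.4%. The tetraspanin Cd63 stood furthest apart, with 422 CPM in macrophage-like and 6.73 CPM in lymphocyte-like cells at steady state (62.7-fold, 26.7 to 193) and 446 against 23.0 CPM on AngII (19.4-fold, 14.6 to 26.4). The protease genes Ctsl (24.9-fold), Lgmn (22.2-fold) and Ctsb (18.7-fold) followed at steady state. Among the members compared, Ctso was the one below 1 in both libraries, with 48.7 CPM in macrophage-like and 68.6 CPM in lymphocyte-like cells at steady state and 34.6 against 46.5 CPM on AngII. In B-cell-like cells it stood at 112 CPM and 95.4 CPM. A droplet can also hold free RNA or the RNA of another cell captured with its own, and doublets were not removed. In the T-cell-like cells of the steady-state library 716 of 1107 Cst3 UMIs came from 1 barcode. The summed level of the 9 macrophage markers in T-cell-like cells was 571 CPM at steady state and 1328 CPM on AngII, and in B-cell-like cells 1355 and 2241 CPM, beside 25380 and 23131 CPM in macrophage-like cells. The 5 type-2 macrophage markers in T-cell-like cells lay the other way, at 5216 CPM at steady state and 397 CPM on AngII, and 1 steady-state barcode held 2254 of their 2294 UMIs. Without that barcode their steady-state level was 96.7 CPM.

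**Figure D2:**
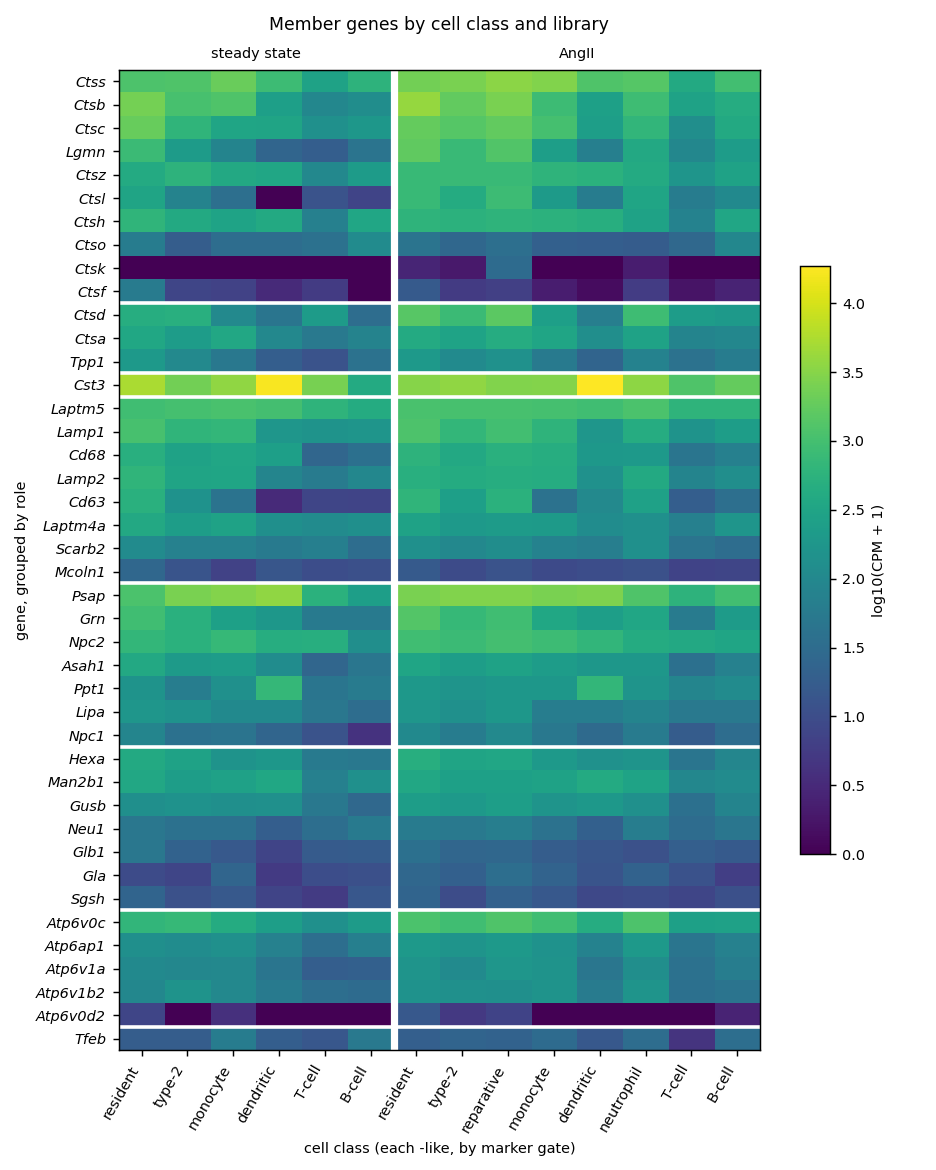
Level of each member gene as log10(CPM + 1) (colour) by cell class (columns, steady state on the left and AngII on the right), with genes (rows) grouped by role and ordered by their level in AngII macrophage-like cells. Cst3 in dendritic-like cells is the brightest field (16848 and 18667 CPM), and Ctsk is at 0 in each steady-state class shown.

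Levels within macrophage-like cells were concentrated in few members. Cst3, which encodes cystatin C, a secreted inhibitor of cysteine cathepsins, had the highest level in both libraries, with 4435 CPM (4341 to 4530) at steady state and 3327 CPM (3294 to 3362) on AngII. Together with Ctsb, Psap, Ctsc and Ctss it made up 50.1% of the member UMIs at steady state, and the same 5 genes made up 48.6% on AngII. On AngII the order after Cst3 was Ctss, Psap, Ctsb and Ctsc.

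Among the cysteine cathepsins and legumain, the endopeptidase and carboxydipeptidase Ctsb had 1989 CPM at steady state and 2632 CPM on AngII, and Ctsc, which activates serine proteases of granules, had 1471 and 1614 CPM. Ctss, the protease that degrades the invariant chain of MHC class II molecules and cleaves elastin, had 1228 and 2800 CPM. Lgmn, the asparaginyl endopeptidase that processes other cathepsins, had 627 and 1209 CPM. Lower in the order stood the carboxypeptidase Ctsz (471 and 768 CPM), the aminopeptidase Ctsh (550 and 606 CPM) and the endopeptidase Ctsl (235 and 639 CPM). Ctso (48.7 and 34.6 CPM), Ctsf (41.9 and 7.65 CPM) and Ctsk (0 and 10.4 CPM), whose product is the collagenase of osteoclasts, were the lowest of this group. The remaining proteases were the aspartic protease Ctsd (465 and 1192 CPM), the serine carboxypeptidase Ctsa (309 and 375 CPM), which also protects neuraminidase and galactosidase, and the tripeptidyl peptidase Tpp1 (167 and 143 CPM).

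Of the membrane proteins, Laptm5, a protein of blood cell lysosomes, had 939 and 1063 CPM, and the abundant membrane glycoprotein Lamp1 had 918 and 902 CPM. Lamp2 (531 and 452 CPM), Cd68 (434 and 476 CPM) and Cd63 (422 and 446 CPM) lay close together, ahead of Laptm4a (340 and 232 CPM) and Scarb2 (103 and 117 CPM), the receptor that carries glucocerebrosidase to the lysosome. The calcium channel gene Mcoln1 was the lowest, at 21.2 and 11.4 CPM. Among lipid-handling proteins and cofactors, Psap, the precursor of the saposins that help degrade sphingolipids, had 1643 and 2739 CPM, progranulin (Grn) 779 and 950 CPM, and the cholesterol carrier Npc2 626 and 894 CPM. Its partner Npc1 had 73.0 and 87.3 CPM. The acid ceramidase Asah1 (328 and 284 CPM), the acid lipase Lipa (172 and 156 CPM) and the thioesterase Ppt1 (129 and 184 CPM) lay between them.

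Glycosidase genes covered a wide range, led by Hexa (361 and 364 CPM), a subunit of hexosaminidase, and the mannosidase Man2b1 (322 and 302 CPM). Gusb, the glucuronidase, had 139 and 226 CPM. The neuraminidase Neu1 (44.5 and 58.4 CPM), the galactosidases Glb1 (39.9 and 27.5 CPM) and Gla (9.32 and 26.8 CPM) and the sulfatase Sgsh (18.6 and 16.6 CPM) were low. For the proton pump, the membrane subunit Atp6v0c had 682 and 1095 CPM, the accessory subunit Atp6ap1 132 and 182 CPM, the catalytic subunit Atp6v1a 101 and 145 CPM and Atp6v1b2 111 and 136 CPM. Atp6v0d2, a subunit isoform of osteoclasts and some macrophages, had 4.66 and 7.38 CPM from 9 and 82 UMIs. Tfeb, the regulator, had 17.6 and 20.5 CPM, a level among the lowest members in both libraries.

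Between the libraries, the summed member level in macrophage-like cells was 1.26-fold higher on AngII (1.24 to 1.27), and 1.39-fold higher (1.37 to 1.40) without Cst3. Of 41 members compared, 28 were above 1 and 13 below, with a median log2 ratio of 0.22 beside 0.00 over all 8684 genes. Past 2-fold stood 5 members higher (all genes 6.31%) and 1 lower (all genes 5.14%). The 5 were Ctss, Ctsd, Ctsl, Gla and Ctsk, and the 1 was Ctsf. Ctss was at 1228 CPM in the steady-state and 2800 CPM in the AngII library (2.28-fold, 2.19 to 2.38). The same ratio was 2.56 (2.40 to 2.75) for Ctsd, 2.73 (2.48 to 3.00) for Ctsl and 2.88 (1.79 to 4.92) for Gla, which rested on 18 and 298 UMIs. Lgmn lay just inside the limit, at 1.93-fold (1.82 to 2.05), but at 1.64-fold as a mean of single cells, at 1.4-fold after thinning and at 4.28-fold once barcodes with markers of the other lineage were left out, which kept 26 steady-state cells. Ctsf, which encodes a papain-like protease, was lower on AngII, with 81 UMIs in 145 cells at steady state and 85 UMIs in 2688 cells on AngII (ratio 0.182, 0.133 to 0.25). In cells with at least 5000 UMIs, a limit chosen after seeing the data, the ratios were 2.31 for Ctss, 2.62 for Ctsd, 2.80 for Ctsl, 2.91 for Gla and 0.198 for Ctsf. Thinning moved Gla inside the limit, to 1.46-fold, and Ctsf to 0.0542, while means of single cells gave 0.115 for Ctsf. With barcodes holding markers of the other lineage left out, Ctsf was inside the limit, at 0.527, and Ctsl was at 4.78-fold.

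Values in lymphocyte-like cells moved in the same direction for some of these genes. There Ctsl was at 9.42 CPM (7 UMIs) at steady state and 72.9 CPM on AngII, Lgmn at 28.3 and 133 CPM, Ctsb at 106 and 334 CPM, and Ctsd at 143 and 221 CPM. In all, 5 of 32 members (Ctsb, Ctsl, Lgmn, Tpp1 and Atp6v1a) were past 2-fold higher on AngII in lymphocyte-like cells, where all genes gave 8.89%, and 0 were lower, where all genes gave 3.77%. Ctss (412 and 554 CPM) was not among them. Without the steady-state barcode rich in type-2 macrophage markers, an alternative chosen after seeing the data, 7 of 31 members were higher (Ctsb, Ctsd, Ctsl, Lgmn, Grn, Ppt1 and Atp6v1a) and 0 lower, with Ctsl at 5.58 CPM and Ctsb at 87.8 CPM at steady state. In T-cell-like cells the macrophage markers were higher on AngII (above). The type-2 macrophage markers were lower on AngII only with that barcode included. Without it they were higher, at 96.7 CPM at steady state and 397 CPM on AngII. The part of free RNA and of captured pairs of cells in the lymphocyte-like ratios was not tested. After the lymphocyte-like level of the same library had been subtracted, the macrophage ratios were 2.75 for Ctss, 3.01 for Ctsd, 2.52 for Ctsl and 1.80 for Lgmn. Gla had no such ratio, because its steady-state level was 9.32 CPM in macrophage-like and 9.42 CPM in lymphocyte-like cells.

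**Figure D3:**
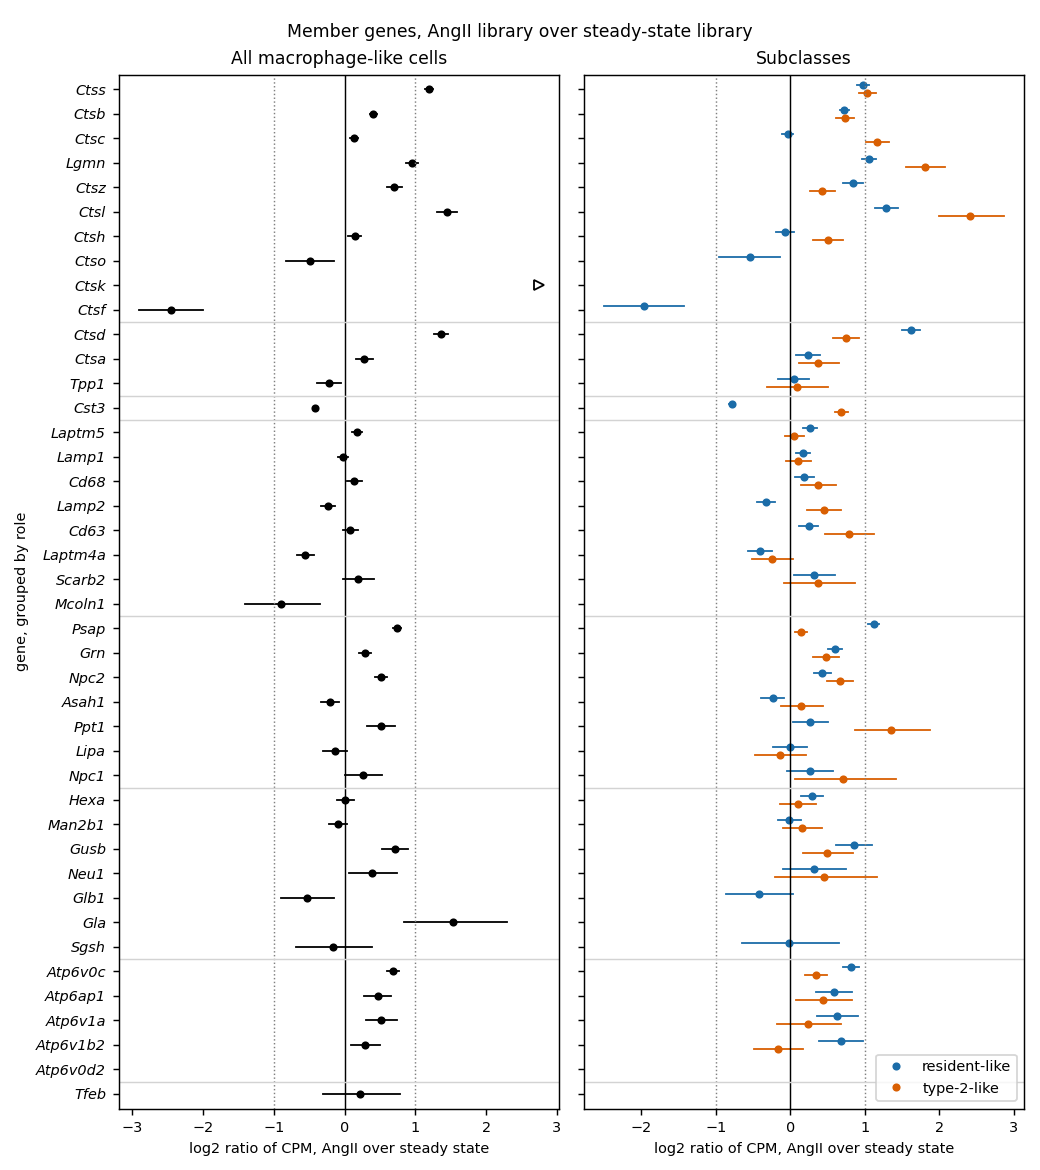
Ratio of CPM, AngII over steady state, on the log2 scale (horizontal axis) for each member gene (vertical axis, grouped by role) in all macrophage-like cells (left) and in resident-like (blue) and type-2-like (orange) cells (right). Lines are exact 95% intervals for counting error, and dotted lines mark 2-fold. The open triangle is a ratio with 3 UMIs in place of 0 (Ctsk, 6.72-fold). Genes with fewer than 100 UMIs have no point; Cst3 lies on opposite sides of 0 in the subclasses (0.580 and 1.61).

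Ctsk was past 2-fold through 1 barcode. The steady-state macrophage-like cells held 0 UMIs, which allows up to 1.55 CPM at a limit of 3 UMIs. The AngII cells held 116, which is 6.72-fold higher with 3 UMIs in place of 0. The exact lower limit of that ratio was 5.38. Of the 117 Ctsk UMIs of the AngII library, 98 lay in 1 reparative-like barcode of 25181 UMIs. The same barcode held 81 UMIs of Acp5, the acid phosphatase of osteoclasts, 25 of the gelatinase gene Mmp9 and 7 of EYFP. It had 0 UMIs of the osteoclast genes Atp6v0d2, Ocstamp, Dcstamp, Oscar and Calcr and of the collagen gene Col1a1. Its Ctsb and Ctsd levels were 318 and 437 CPM, against 2638 and 1194 CPM in the other macrophage-like cells. Without it, 18 UMIs of Ctsk remained in AngII macrophage-like cells, a level of 1.62 CPM that is near the limit at steady state. Then 4 members were past 2-fold higher. With 3 markers needed to gate a cell, Ctsk was at 1.06-fold with 3 UMIs in place of 0, and 4 members were higher as well. Its place past 2-fold thus also depended on the gate. The share of all genes was not computed for these alternatives.

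Within resident-like cells, gated on genes such as Lyve1 and Folr2, the summed member level was 23883 CPM at steady state and 30081 CPM on AngII (1.26-fold, 1.24 to 1.28). Ctsd (465 and 1426 CPM, 3.07-fold), Ctsl (309 and 753 CPM, 2.44-fold), Psap (1170 and 2539 CPM, 2.17-fold) and Lgmn (821 and 1705 CPM, 2.08-fold) were past 2-fold higher, 4 of 37 members compared against 4.73% of 5920 genes. Ctsf was the 1 member past 2-fold lower (58.6 and 15.1 CPM, ratio 0.257), where all genes gave 4.10%. Ctss was just inside, at 1.97-fold (1.87 to 2.08). The 4 compared proton pump genes lay between 1.5-fold (Atp6ap1) and 1.76-fold (Atp6v0c), and Cst3 was lower (5429 and 3150 CPM, ratio 0.580, 0.563 to 0.598). The make-up of the class moved with the library. The 11 resident macrophage markers summed to 13795 CPM at steady state and 6655 CPM on AngII, the 5 type-2 markers to 7172 and 985 CPM and the 6 reparative markers to 265 and 904 CPM. Their part in these ratios was not tested.

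Type-2-like cells, gated on genes such as Retnla and Ear2, had a summed level of 16022 CPM at steady state, in 22 cells with a median of 27025 UMIs, and of 23541 CPM on AngII, in 688 cells with a median of 1291 UMIs (1.47-fold, 1.44 to 1.5). Here 5 of 33 members were past 2-fold higher, against 6.86% of 4898 genes, and 0 lower, against 2.41%. Ctsl was at 79.5 and 424 CPM (5.34-fold, 3.98 to 7.33) and Lgmn at 221 and 778 CPM (3.52-fold, 2.94 to 4.24). Ppt1 (2.56-fold), Ctsc (2.25-fold) and Ctss (2.05-fold) were the others. Ctsd was inside the limit at 1.68-fold, and Psap at 1.11-fold. Cst3 was higher on AngII in this subclass (2272 and 3651 CPM, 1.61-fold, 1.52 to 1.70). A ratio pooled within the macrophage subclasses present in both libraries gave 1.31-fold for the summed level. It leaves out the 568 reparative-like cells of the AngII library, and its other macrophages rest on 4 steady-state cells. At steady state and on AngII the 5 type-2 markers stood at 36521 and 8179 CPM in these cells and the 9 macrophage markers at 7559 and 13969 CPM, and their part in these ratios was not tested.

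Outside macrophages, monocyte-like cells (24 and 145) had 17409 CPM at steady state and 19385 CPM on AngII. Past 2-fold higher on AngII were 5 of 27 members (all genes 7.21%), namely Ctsl (35.0 and 215 CPM), Ctsc (318 and 1008 CPM), Lgmn (84.7 and 248 CPM), Ctsd (102 and 256 CPM) and Atp6v0c (423 and 925 CPM), and 0 were lower (all genes 4.67%). The 3 smooth muscle markers stood at 1043 CPM in the steady-state cells, where Mgp, Tagln and Acta2 were among the leading genes, and at 8.1 CPM on AngII, and 1 barcode held 356 of their 357 steady-state UMIs. Without it, an alternative chosen after seeing the data, the same 5 of 27 members were past 2-fold higher and 0 lower. The 9 macrophage markers were at 2634 and 4060 CPM in monocyte-like cells, and their part was not tested. In dendritic-like cells (21 and 310) 3 of 30 were higher (all genes 6.59%) and 0 lower (all genes 3.79%). These were Lgmn (24.1 and 67.9 CPM), Cd63 (1 UMI and 280 UMIs, the latter in 35 cells) and Ctsl. Ctsl had 0 UMIs at steady state and 168 on AngII (9.38-fold with 3 UMIs in place of 0), 41 of them in 1 barcode. The make-up of the dendritic-like class differed too. Fscn1 came first among its leading genes on AngII and was not among them at steady state, where Cd209a was. Its 9 macrophage markers were at 103 CPM at steady state and 315 CPM on AngII, and their part was not tested. Ctsl and Lgmn were past 2-fold higher on AngII in the monocyte-like, dendritic-like, resident-like, type-2-like and lymphocyte-like cells. These comparisons share the 2 libraries and are not independent.

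The subclasses differed within a library. Type-2-like cells had a lower summed level than resident-like cells, at 23541 against 30081 CPM on AngII and 16022 against 23883 CPM at steady state. Past 2-fold lower on AngII were 4 members (all genes 3.55%), Sgsh (8.90 against 22.6 CPM), Cd63 (254 against 615 CPM), Ctsb (1777 against 3958 CPM) and Lgmn (778 against 1705 CPM), and 0 were higher (all genes 1.89%). At steady state 9 were lower (all genes 12.7%), Ctsl, Lgmn, Cd63, Ctsc, Ppt1, Cst3, Npc1, Ctsb and Lamp2, with ratios from 0.257 for Ctsl to 0.488 for Lamp2. Psap was the 1 member higher there (2610 against 1170 CPM, 2.23-fold, 2.08 to 2.40), where all genes gave 4.55%. Reparative-like cells resembled resident-like cells in their sum, with 28645 against 30081 CPM (ratio 0.952, 0.944 to 0.961). Among 39 members 1 was past 2-fold higher (all genes 1.92%), Ctsk, by the barcode described above, and 0 were lower (all genes 2.34%). Ctss had its highest macrophage level in reparative-like cells, at 3417 CPM against 2341 CPM in resident-like cells, and Ctsb was lower there, at 2604 against 3958 CPM.

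Dendritic-like cells had sums as high as macrophages but of another make-up. Their summed level was 27274 CPM at steady state and 29553 CPM on AngII, of which Cst3 made up 61.8% and 63.2%. Without Cst3 the sums were 10427 and 10886 CPM, against 17042 and 23633 CPM in macrophage-like cells. Cst3 was at 16848 against 4435 CPM at steady state (3.80-fold) and at 18667 against 3327 CPM on AngII (5.61-fold, 5.54 to 5.69). Ppt1 was higher as well, at 708 against 129 CPM (5.47-fold, 4.62 to 6.48) and 668 against 184 CPM (3.63-fold, 3.40 to 3.86). At steady state 3 of 33 members were past 2-fold higher (all genes 4.96%), Psap being the other one (3611 against 1643 CPM), and 17 were lower (all genes 17.8%). On AngII 2 of 40 were higher (all genes 5.06%) and 25 lower (all genes 15.1%). The genes furthest below macrophages on AngII were Ctsd (65.3 against 1192 CPM), Lgmn (67.9 against 1209 CPM), Ctsl (61.7 against 639 CPM) and Ctsb (267 against 2632 CPM). Ctsh (471 against 606 CPM) and Ctsz (529 against 768 CPM) stayed within 2-fold. The 9 macrophage markers summed to 103 CPM in the dendritic-like cells of the steady-state library and 315 CPM in those of the AngII library.

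**Figure D4:**
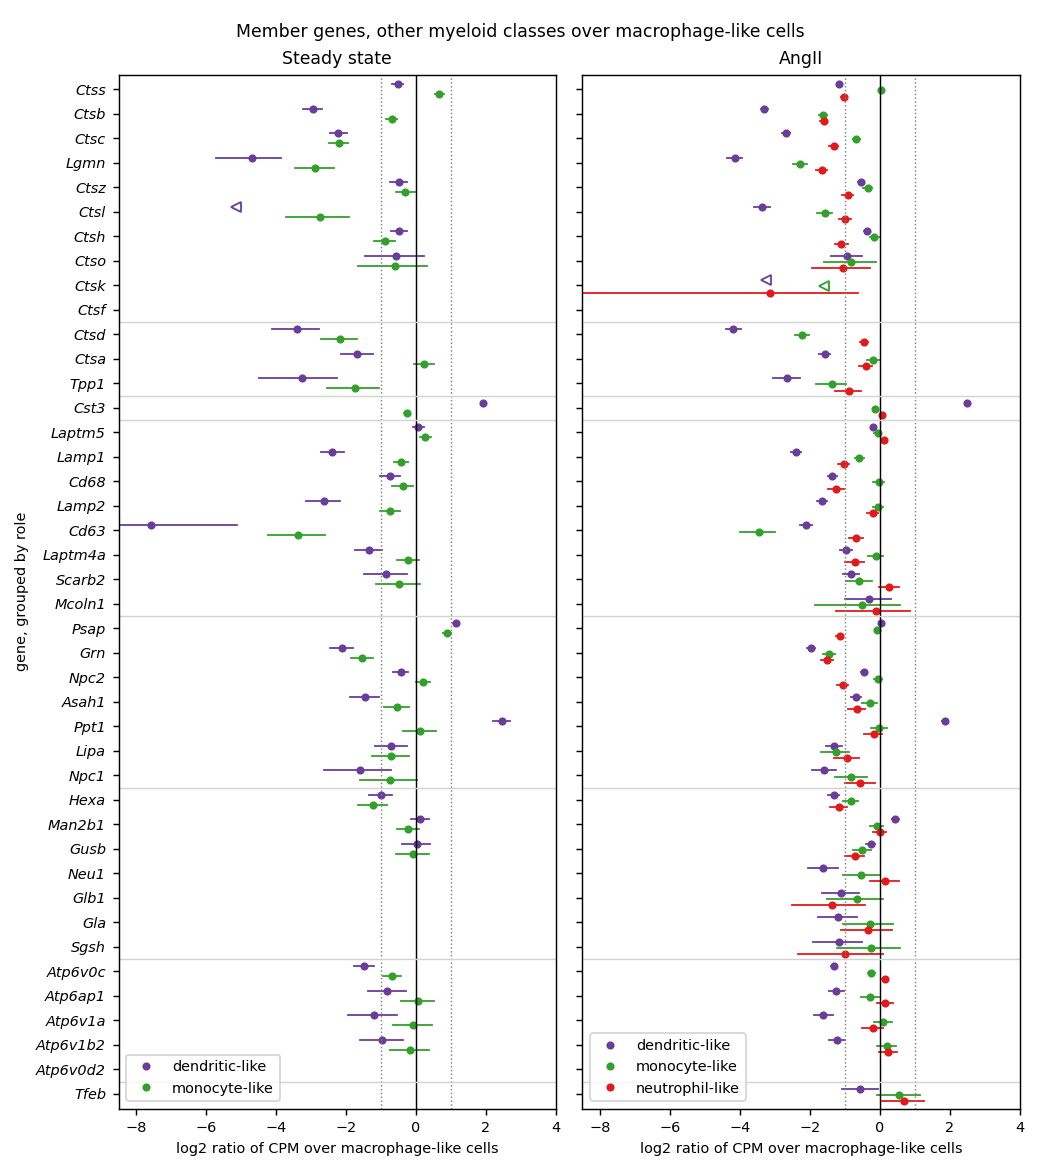
Ratio of CPM over macrophage-like cells of the same library, on the log2 scale (horizontal axis), for each member gene (vertical axis, grouped by role) in dendritic-like (purple), monocyte-like (green) and, on AngII, neutrophil-like cells (red). Lines are exact 95% intervals for counting error, some of which run beyond the left edge. Open triangles are ratios with 3 UMIs in place of 0. Cst3 and Ppt1 lie past 2-fold to the right in dendritic-like cells in both panels, while Ctsd, Lgmn, Ctsl and Ctsb lie far to the left.

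In monocyte-like cells 0 members were past 2-fold higher than in macrophage-like cells in either library (all genes 7.78% at steady state and 2.47% on AngII), while 8 of 33 were lower at steady state (all genes 14.7%) and 9 of 40 on AngII (all genes 10.9%). Cd63, Lgmn, Ctsd, Ctsl, Tpp1 and Grn were lower in both. Cd63 was at 40.9 and 40.5 CPM, and its 14 UMIs in steady-state monocyte-like cells lay in 1 cell, the barcode rich in smooth muscle markers. Ctss was at 1942 CPM at steady state, above the 1228 CPM of macrophage-like cells, and at 2887 against 2800 CPM on AngII. Neutrophil-like cells, of which the AngII library held 317 and the steady-state library 3, had a sum of 16693 CPM on AngII. Among 40 members 0 were higher than in macrophage-like cells (all genes 7.62%) and 14 lower (all genes 14.3%), the lowest with at least 100 UMIs in both classes being Lgmn (384 CPM) and Ctsb (865 CPM). Ctsd (873 CPM) and the pump gene Atp6v0c (1214 against 1095 CPM) were inside the limit. The 9 macrophage markers summed to 4745 CPM in these neutrophil-like cells, beside 23131 CPM in macrophage-like cells. Their part in the neutrophil-like levels was not tested.

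The reporter marks macrophages that express or have expressed Rank, or that descend from such cells. Rank itself (Tnfrsf11a) was at 43.3 CPM in AngII macrophage-like cells other than the Ctsk-rich barcode, so EYFP does not separate present from past expression. At least 1 EYFP UMI was found in 107 of 145 macrophage-like cells at steady state (73.8%, exact binomial interval 65.8% to 80.7%) and in 358 of 2688 on AngII (13.3%, 12.1% to 14.7%), against 2.15% and 3.30% of lymphocyte-like cells. Other classes varied, with 7 of 8 and 8 of 23 type-2 innate lymphoid-like cells but 1 of 24 and 1 of 145 monocyte-like cells. The macrophage shares depend on depth, since EYFP+ macrophage-like cells had a median of 11501 and 5354 UMIs and EYFP- cells one of 6875 and 1002 UMIs. After thinning to 1000 UMIs the share was 29 of 143 (20.3%, 14.0% to 27.8%) at steady state and 113 of 1467 (7.7%, 6.39% to 9.19%) on AngII, against 1.09% and 1.79% of lymphocyte-like cells. The summed member level was 21919 CPM in EYFP+ and 19542 CPM in EYFP- cells at steady state (1.12-fold, 1.09 to 1.15), and 27726 against 26572 CPM on AngII (1.04-fold, 1.04 to 1.05). Pooled within subclasses the ratios were 1.01 and 0.983, and with EYFP called after thinning to 1000 UMIs they were 1.03 and 0.993. At steady state 0 of 32 members were past 2-fold in either direction (all genes 2.67% higher and 1.06% lower). On AngII 1 of 40 was higher (all genes 0.949%), Ctsk, whose main barcode is EYFP+, and 0 were lower (all genes 1.11%).

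Apart from Ctsk on AngII, the members compared differed by less than 2-fold. Ctsf (48 and 37 UMIs, 2.56-fold) and Atp6v0d2 (45 and 37 UMIs, 2.40-fold) on AngII held fewer than 100 UMIs and were not compared. In macrophage-like cells Ctsb was higher in EYFP+ cells in both libraries, at 2116 against 1434 CPM at steady state (1.47-fold, 1.34 to 1.62) and 3215 against 2337 CPM on AngII (1.38-fold, 1.34 to 1.41). Lgmn gave 1.46-fold and 1.27-fold. Ctss (0.872 and 0.811) and Psap (0.781 and 0.891) were lower in EYFP+ cells. Within resident-like cells, which held 91 EYFP+ and 28 EYFP- cells at steady state and 176 and 507 on AngII, Ctsb was at 0.931 (0.839 to 1.03) and 0.955 (0.923 to 0.989) and Lgmn at 0.805 and 0.934. Psap was lower in EYFP+ resident-like cells too, at 0.865 (0.749 to 1.0) and 0.784 (0.751 to 0.818). The summed ratio there was 0.909 (0.880 to 0.939) at steady state and 0.960 (0.948 to 0.972) on AngII. Of the 32 and 35 members compared in resident-like cells, 0 were past 2-fold in either direction (all genes 3.82% higher and 0.645% lower at steady state, 0.418% higher and 0.648% lower on AngII).

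**Figure D5:**
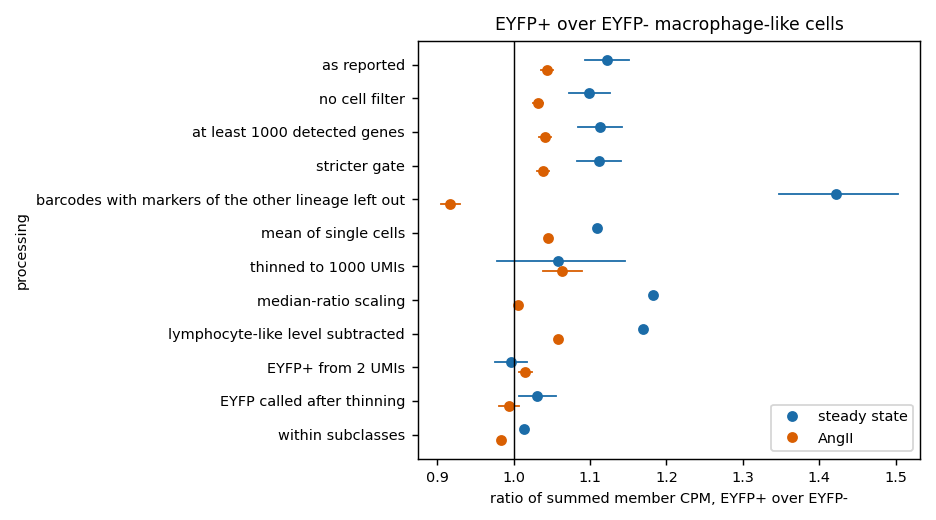
Ratio of the summed member CPM of EYFP+ over EYFP- macrophage-like cells (horizontal axis, where 1 means equal levels) as reported and under each alternative processing (vertical axis), at steady state (blue) and on AngII (orange). Lines, where drawn, are exact 95% intervals for counting error. The values lie near 1 within subclasses (1.01 and 0.983) and furthest from it where barcodes with T- or B-cell markers were left out (1.42 and 0.917).

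The same comparisons were made for 82 lysosome genes that are not members. In macrophage-like over lymphocyte-like cells 22 of 38 were past 2-fold higher at steady state (all genes 23.2%) and 46 of 77 on AngII (all genes 18.7%). Between the libraries 6 of 75 were past 2-fold higher on AngII in macrophage-like cells (Cstb, Galns, Acp5, Tcirg1, Igf2r and Gpnmb), where all genes gave 6.31%, and 2 lower (Arsb and Hgsnat), where all genes gave 5.14%, with a median log2 ratio of 0.10. Cstb, a cytosolic inhibitor of cathepsins, Acp5 and the pump subunit Tcirg1 passed the limit in resident-like cells too.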

How the data were processed

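The deposited values are UMI counts per gene and cell barcode, which the authors made per the labels and their methods from 10x 3′ (v3.1) reads with bcl2fastq, Je and Cell Ranger 3.1.0, with GENCODE M24 genes on GRCm38.p6 plus eYFP as the reference; the counts are whole numbers and were not normalized. Each condition is 1 library of pooled animals.

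A barcode was kept if it had between 300 and 6500 genes with a UMI and no more than 5% of its UMIs from mitochondrial genes. Each was given the class whose marker list had the largest share of genes detected, with at least 2 markers, ties going to the list with more UMIs, and macrophage-like barcodes were divided by 3 further lists in the same way. This rebuilt gate was settled after seeing the data, and 194 AngII barcodes stayed ungated. Doublets were left in. An alternative leaves out macrophage-like barcodes with any UMI of a T- or B-cell marker, and lymphocyte-like barcodes with any of a macrophage marker. It kept 26 of 145 macrophage-like cells at steady state and 1556 of 2688 on AngII. Before it, these classes had medians of 10450 and 1090 UMIs. The part of depth and free RNA in this selection was not tested. Ratios are of CPM summed over a class, with 3 UMIs in place of 0. EYFP+ means at least 1 EYFP UMI. Described with values are the members past 2-fold in a comparison and those with the most UMIs in each role; other lysosome genes are named where past 2-fold. The members and lists were chosen with earlier results of these data known. The ratio and its interval were tested on simulated counts, and thinning on the counts of the AngII library. Values were computed in Python 3.11.15 with pandas 2.3.3, SciPy 1.17.1 and NumPy 2.4.6, and plotted with Matplotlib 3.10.9. Of 83 other lysosome genes listed, 82 were found. Gene locations follow GENCODE M21 and promoters RefSeq, both on GRCm38, as M24 was not used here.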

Additional observations from a re-analysis of the deposited data

Results flagged for a closer look

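Between the libraries, 2 members went in opposite directions in the resident-like and type-2-like cells, each past its counting interval. The cathepsin inhibitor gene Cst3 was lower on AngII in resident-like cells (ratio 0.580) and higher in type-2-like cells (1.61). The membrane glycoprotein gene Lamp2 gave 0.795 and 1.37. With 1 library per condition, the difference between the subclasses was not tested, and the steady-state type-2-like cells number 22.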

How the results depend on the processing

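No paired analysis was possible because each condition is 1 library. The cell filter, gate and depth limits left the AngII over steady state ratio of the macrophage-like sum near its reported value, while thinning and averaging over cells moved it. The direction of the EYFP ratios depended on the setting, and the cause was not tested. The AngII library is shallow, which limits single genes per cell; steady-state classes other than macrophages, T and B cells are small.

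The macrophage-like over lymphocyte-like ratio on AngII was 3.88 without a cell filter, 4.90 in cells with at least 1000 detected genes, 4.2 with 3 markers needed, and 5.07 in cells of at least 5000 UMIs, a limit chosen after seeing the data. Leaving out barcodes with markers of the other lineage left 26 steady-state macrophage-like cells and gave 3.11 at steady state and 4.24 on AngII for this ratio, 1.54 for AngII over steady state, 9 members higher and 0 lower, and EYFP ratios of 1.42 and 0.917. Means of single cells gave 5.99, 2.59 and 1.17, with 2 members lower. Thinning to 1000 UMIs gave 6.31, 2.98 and 1.14, with 3 members higher and 0 lower, and EYFP ratios of 1.06 and 1.06. Median-ratio scaling gave 4.79, 4.76 and 1.30, and EYFP ratios of 1.18 and 1.01. Subtracting the lymphocyte-like level gave 1.27 for AngII over steady state, with 3 members lower, and EYFP ratios of 1.17 and 1.06. Without a cell filter the AngII EYFP ratio was 1.03. EYFP+ from 2 UMIs gave 0.996 and 1.02, EYFP called after thinning 1.03 and 0.993, and pooling within subclasses 1.01 and 0.983. Pooling within the subclasses present in both libraries, which leaves out reparative-like cells, gave 1.31 for AngII over steady state. A 1.5-fold threshold gave 10 members higher and 2 lower. Leaving out the Ctsk-rich barcode, added after seeing the data, kept the sums and gave 4 members higher. The share of all genes past the limit was not computed for these alternatives. Their counts of members therefore stand without a background and are not results about the members.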
